A study of Mus musculus with 8 samples.

Results

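The ISG15 conjugation system comprised 5 genes here, chosen by symbol from the 22274 genes of the deposited table: Isg15, Uba7, Ube2l6, Herc6 and Usp18. All 5 were among the 14608 genes with enough reads to test. ISG15 is a small ubiquitin-like protein that interferon-treated cells make in quantity and attach to other proteins. An activating enzyme (E1) charges it, a conjugating enzyme (E2) accepts it, and a ligase (E3) passes it to lysines of target proteins, while a dedicated protease removes it again. In most cell types, fibroblasts and epithelial cells included, transcription of these genes is switched on by type I interferon through ISGF3, a transcription factor complex that includes STAT2 and IRF9 and binds interferon-stimulated response elements.

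RNA was sequenced from the mouse kidney line RFB, which the labels call a fibroblast line. In 4 samples the cells received TGF-β together with chaetocin, and in the 4 samples they were set against they received TGF-β alone. TGF-β is a cytokine that drives matrix production. Chaetocin is a fungal metabolite used to inhibit SUV39-type histone methyltransferases, and it also acts on redox enzymes. Every library therefore came from TGF-β-treated cells, and no value below describes the effect of TGF-β itself. No dose, duration or clone is given in the sources used here. SUV39H1 knockdown cells appear in the design text of the series, but the label of each sample names a treatment and no knockdown. Whether replicates came from separate cultures is not stated, so a p-value here reflects only the variation among these libraries, some of which may be technical.

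The libraries held 14421225 to 22591935 counts with chaetocin and 20135312 to 23664084 counts with TGF-β alone, and 3 counts equalled 0.128 to 0.200 CPM with chaetocin and 0.132 to 0.155 CPM with TGF-β alone (CPM, read counts scaled to a common library size). At an adjusted p under 0.05, 11791 genes (80.7%) were called, 6129 higher with chaetocin and 5662 lower. Over all tested genes the log2 fold change had a median of 0.02. The levels of the 12 fibroblast markers were uneven. Their sum was 17875 to 19315 CPM with chaetocin and 37786 to 39624 CPM with TGF-β alone, most of it Fn1, the fibronectin gene, and of the 11 that were tested 2 rose and 6 fell. Acta2, smooth muscle actin, averaged 1598 CPM with chaetocin and 1248 CPM with TGF-β alone, and Col1a1 averaged 58.1 CPM with chaetocin and 233 CPM with TGF-β alone. Dcn, decorin, rose to 2.28 CPM with chaetocin, against 0.129 CPM with TGF-β alone. Col3a1 averaged 6.66 CPM with chaetocin and 8.20 CPM with TGF-β alone, and Pdgfra averaged 3.78 CPM with chaetocin and 3.52 CPM with TGF-β alone. The 11 epithelial markers, led by the keratin Krt8, summed to 8208 to 8559 CPM with chaetocin and 5300 to 5462 CPM with TGF-β alone, so epithelial transcripts were present under the fibroblast label. Of these 5 rose and 5 fell, with a median log2 fold change of -0.07: Krt8 rose by 1.19 and Krt18 by 1.13, while Cldn4 fell by 0.51 and Lrp2 by 0.68.

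The promoter sequences below show where the letters of an interferon response element lie at Isg15, the member with the highest level per length with chaetocin, and at one without the full element. Both windows were taken from RefSeq on GRCm38.p6 and run from 250 bases before to 50 bases after the RefSeq start, on the strand of the gene. Capitals mark matches to the core of the interferon-stimulated response element (GAAA, then NN for any bases, then GAAA) or to the shorter half-site that interferon regulatory factors recognise, AANNGAAA, on either strand. Every core match holds a half-site match. The Isg15 window is chr4:156200769-156201068, minus strand, and the Uba7 window is chr9:107975317-107975616, plus strand.
Isg15: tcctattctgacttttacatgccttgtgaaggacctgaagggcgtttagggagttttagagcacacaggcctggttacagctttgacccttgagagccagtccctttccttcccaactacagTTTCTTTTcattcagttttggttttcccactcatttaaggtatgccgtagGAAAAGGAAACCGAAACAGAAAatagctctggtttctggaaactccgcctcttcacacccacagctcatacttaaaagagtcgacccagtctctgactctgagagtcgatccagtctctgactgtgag
Uba7: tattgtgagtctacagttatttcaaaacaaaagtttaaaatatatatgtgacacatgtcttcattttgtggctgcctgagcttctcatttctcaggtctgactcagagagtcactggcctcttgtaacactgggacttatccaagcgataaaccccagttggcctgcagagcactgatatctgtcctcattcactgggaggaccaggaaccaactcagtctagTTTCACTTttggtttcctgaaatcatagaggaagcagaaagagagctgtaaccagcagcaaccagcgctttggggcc
The Isg15 window held 3 overlapping core matches, whose first bases lie at -78, -72 and -66 relative to the start. The window also held a separate half-site match on the other strand at -128. Core matches occurred in 3.44% of all 32851 RefSeq promoter windows of this length. The Uba7 window held no core match and 1 half-site match, on the other strand at -27, and 23.9% of all windows held a half-site. Neither motif occurred in the windows of Ube2l6 and Herc6. The gamma-activated site letters TTCNNNGAA occurred in none of the 4 windows and in 8.3% of all windows. Usp18 had no entry in the promoter table. A match or its lack in a window of 300 bases is a description of letters, not of binding.

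All 5 members were higher with chaetocin, by 2.12 to 5.18 on the log2 scale. Of all tested genes 42.0% were called higher by the same rule, so the calls alone did not set the 5 genes apart. All 5 rose at least 4-fold, against 11.8% of all tested genes, and their median log2 fold change was 2.83. For each member every chaetocin library lay above every library with TGF-β alone, as was the case for 39.0% of tested genes. Levels are given as CPM after scaling for library composition (TMM), with the SD over 4 libraries, and adjusted p-values of single genes are from edgeR's quasi-likelihood test with Benjamini-Hochberg adjustment over all tested genes.

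**Figure D1:**
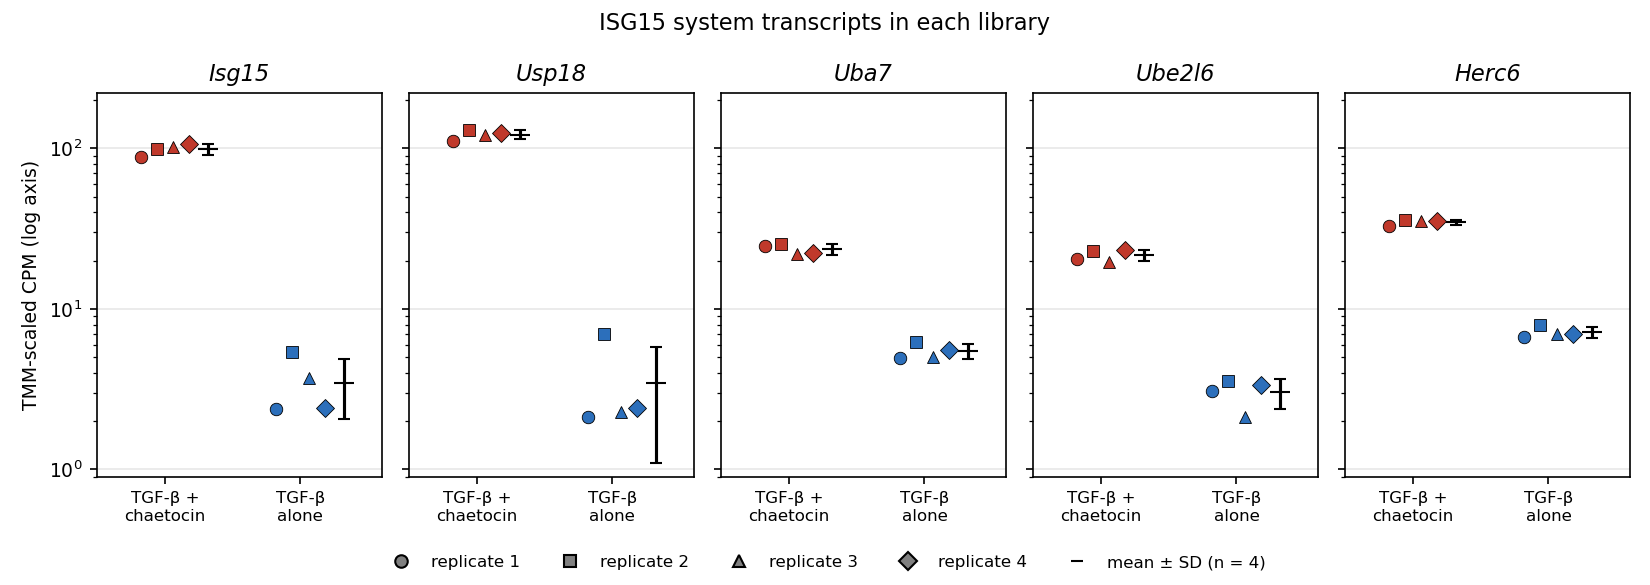
Scaled read counts (CPM, log axis) of the 5 members in each library with TGF-β and chaetocin (red) and with TGF-β alone (blue), with mean and SD over the 4 libraries of a group. In all 5 panels the red points lie above the blue ones, and the blue replicate 2 of Usp18 stands at 6.96 CPM, above the other blue points.

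Isg15 (ENSMUSG00000035692), the modifier, has 2 exons and lies on the minus strand at chr4:156199424-156200818 (GRCm38). Its level was 88.1, 98.7, 102.2 and 106.2 CPM in chaetocin replicates 1 to 4, against 2.39, 5.41, 3.70 and 2.42 CPM in the TGF-β replicates 1 to 4. The lowest chaetocin library was far above the highest library with TGF-β alone, which was replicate 2. The log2 fold change was 4.85 ± 0.10 (SE; edgeR adjusted p = 7.80e-25). Means were 98.8 ± 7.81 CPM with chaetocin and 3.48 ± 1.43 CPM with TGF-β alone (SD, n = 4 each), a ratio of 28.4. Only 3.55% of tested genes had a log2 fold change at least as high.

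Uba7 (ENSMUSG00000032596), also called UBE1L, is the E1 that activates ISG15. It lies on the plus strand at chr9:107975505-107984060 and has up to 24 exons in a transcript. Its level was 24.7, 25.3, 21.9 and 22.3 CPM in the chaetocin replicates, against 4.96, 6.24, 5.04 and 5.54 CPM in the TGF-β replicates. Neither group had a library apart from the rest, and the groups did not overlap. The rise was the smallest of the 5 in the edgeR fit, with a log2 fold change of 2.12 ± 0.08 (SE; edgeR adjusted p = 1.23e-18). That of Herc6 was close, at 2.27 ± 0.07 (SE), and this pair was not compared in a test. The mean levels were 23.5 ± 1.71 CPM with chaetocin and 5.44 ± 0.588 CPM with TGF-β alone (SD, n = 4 each). In the GENCODE M21 annotation Uba7 shares 233 exonic bases with Gm20661 on the same strand, a gene with 8 reads over the chaetocin libraries and 0 over the libraries with TGF-β alone.

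Ube2l6 (ENSMUSG00000027078), which encodes UBCH8, is the E2 that carries ISG15. It lies on the plus strand at chr2:84798828-84810335. Its level was 20.4, 22.9, 19.7 and 23.3 CPM in the chaetocin replicates, against 3.08, 3.56, 2.12 and 3.34 CPM in the TGF-β replicates. The groups did not overlap, and TGF-β replicate 3 was the lowest library. The log2 fold change was 2.83 ± 0.11 (SE; edgeR adjusted p = 5.27e-19), and the means were 21.6 ± 1.81 CPM with chaetocin and 3.03 ± 0.632 CPM with TGF-β alone.

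Herc6 (ENSMUSG00000029798) encodes the main ISG15 ligase of the mouse, a role that HERC5 has in human cells. It lies on the plus strand at chr6:57581000-57664632. Its level was 32.7, 35.7, 35.1 and 35.1 CPM in the chaetocin replicates, against 6.66, 7.99, 6.96 and 7.0 CPM in the TGF-β replicates. Within each group the libraries lay close together, and the groups did not overlap. The log2 fold change was 2.27 ± 0.07 (SE; edgeR adjusted p = 1.35e-21), and the means were 34.7 ± 1.31 CPM with chaetocin and 7.15 ± 0.578 CPM with TGF-β alone. In GENCODE M21 Herc6 shares 1269 exonic bases with the transcript Gm45193 on the same strand, so reads of both cannot be told apart there.

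Usp18 (ENSMUSG00000030107), also called UBP43, is the protease that removes ISG15 from its targets. Its protein also binds the interferon receptor chain IFNAR2 and damps signalling through it. The gene lies on the plus strand at chr6:121245906-121270917 and shares 124 exonic bases with Gm44148 on the opposite strand. Its level was 111.9, 130.0, 121.7 and 124.6 CPM in the chaetocin replicates, against 2.11, 6.96, 2.27 and 2.42 CPM in the TGF-β replicates. The groups did not overlap, but TGF-β replicate 2 stood at 3.07 times the mean of the other 3 libraries. The log2 fold change of 5.18 ± 0.13 (SE; edgeR adjusted p = 1.73e-23) was the highest of the 5, and without that library it was 5.73. Means were 122.1 ± 7.59 CPM with chaetocin and 3.44 ± 2.35 CPM with TGF-β alone (SD, n = 4 each).

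Levels can be compared between genes only per length, for which the authors' deposited FPKM values serve. With chaetocin the order of mean FPKM was Isg15 at 146.1, Usp18 at 71.8, Ube2l6 at 14.4, Herc6 at 7.56 and Uba7 at 7.51. Herc6 spanned 7.11 to 7.80 FPKM and Uba7 6.99 to 8.10 FPKM in these libraries, so this pair did not differ beyond its spread, while the other neighbours in the order did not overlap. With TGF-β alone Isg15 averaged 4.77 FPKM, and the means of the other 4 lay between 1.61 and 1.87 FPKM with overlapping libraries. There Isg15, at 3.25 to 7.42 FPKM, also overlapped Usp18, at 1.14 to 3.79 FPKM. The FPKM of Herc6 in TGF-β replicate 3 was 2.21, against 1.34 to 1.61 in the other 3 TGF-β libraries. Its count there was not raised: the count and FPKM of that library together imply a gene length of 3036 bases, against 4754 to 4781 bases in the other TGF-β libraries. The authors' deposited table gives log2 ratios of 4.94 for Isg15, 2.22 for Uba7, 2.95 for Ube2l6, 2.20 for Herc6 and 5.26 for Usp18. The Herc6 ratio, and its mean of 1.64 FPKM with TGF-β alone, include the replicate 3 value that does not match its count.

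The 3 enzymes of the conjugation chain rose by less than the modifier, and for the protease no such difference passed the test. Within each library the count of each enzyme was set against that of Isg15, a ratio free of library scaling. For Uba7 the log2 ratio averaged -2.07 ± 0.20 with chaetocin and 0.72 ± 0.47 with TGF-β alone, a difference of -2.79 ± 0.26 (SE). The difference was -2.05 ± 0.33 for Ube2l6 and -2.62 ± 0.23 for Herc6. For these 3 genes all chaetocin libraries lay below all others, with an exact two-sided permutation p of 0.0286, the smallest that 4 against 4 libraries can give, and 0.0381 after Benjamini-Hochberg adjustment over the 4 ratios.

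For Usp18 the log2 ratio to Isg15 averaged 0.31 ± 0.08 with chaetocin and -0.13 ± 0.44 with TGF-β alone. The groups overlapped, and the difference of 0.43 ± 0.22 (SE) did not pass the test (exact two-sided permutation p = 0.114). Leaving out TGF-β replicate 2 gave a difference of 0.60, and leaving out TGF-β replicate 3 gave 0.24. Per length, the Usp18 FPKM was 0.466 to 0.524 of the Isg15 FPKM with chaetocin and 0.244 to 0.511 of it with TGF-β alone. For Uba7 the same share was 0.0451 to 0.0607 with chaetocin and 0.249 to 0.495 with TGF-β alone.

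**Figure D2:**
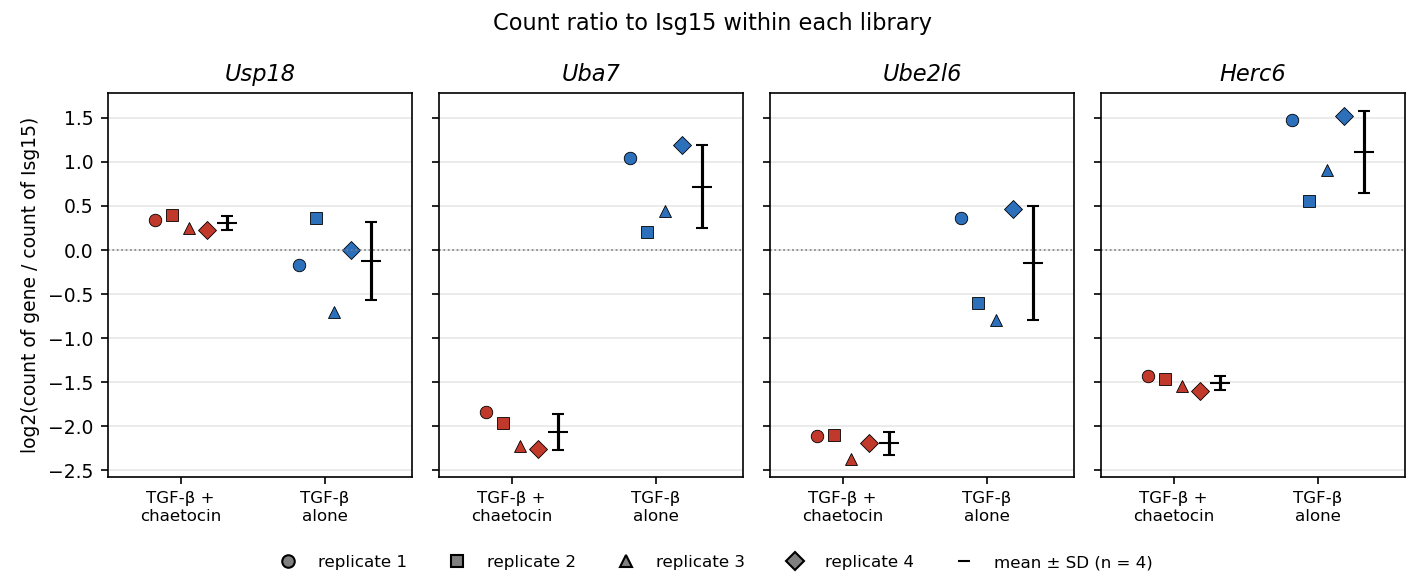
Log2 ratio of the counts of Usp18, Uba7, Ube2l6 and Herc6 to the count of Isg15 in each library with TGF-β and chaetocin (red) and with TGF-β alone (blue), with mean and SD over 4 libraries. Uba7, Ube2l6 and Herc6 are lower against Isg15 in every chaetocin library, and the groups of Usp18 overlap.

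The spread among libraries with TGF-β alone differed between members. The coefficient of variation there was 68.3% for Usp18 and 41.0% for Isg15, but 20.9% for Ube2l6, 10.8% for Uba7 and 8.08% for Herc6. Without TGF-β replicate 2 it was 6.77% for Usp18, 26.5% for Isg15, 22.5% for Ube2l6, 6.11% for Uba7 and 2.69% for Herc6, so the place of Usp18 at the top rested on that library. With chaetocin it was 3.78% to 8.38% over the 5 members. TGF-β replicate 2 was the highest of the 4 libraries for 5 of 5 members and for 24 of 27 other interferon-stimulated genes (88.9%), against 24.2% of all tested genes. Its median log2 difference from the other 3 libraries was 0.28 for the members and 0.48 for the 27 genes. What set that library apart was not tested, and the 5 members kept their calls without it.

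**Figure D3:**
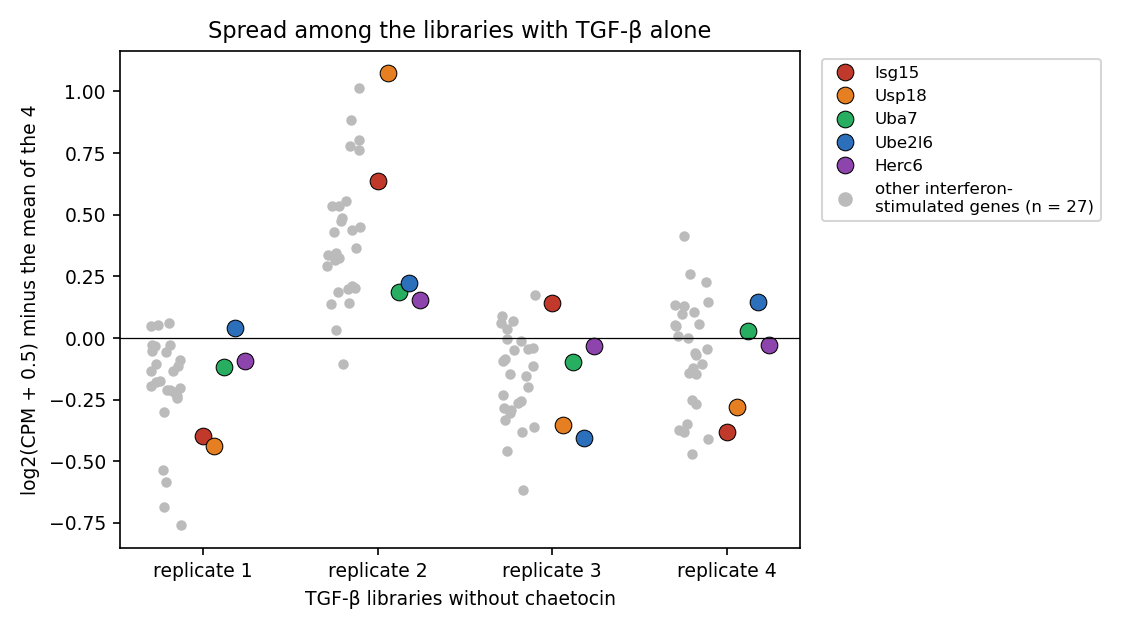
Log2(CPM + 0.5) of each member (coloured) and of 27 other interferon-stimulated genes (grey) in the 4 libraries with TGF-β alone, relative to the mean of the 4. Replicate 2 holds the highest point of each of the 5 members, and Usp18 lies farthest up.

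Of 4 other enzymes tied to ISG15 transfer, 1 rose and 3 did not pass the test, where 42.0% of all tested genes rose. The median log2 fold change was -0.02, and 2 of the 4 were called higher under total-count scaling and in limma on FPKM. Trim25, a ligase that is itself interferon-induced, averaged 227 ± 12.5 CPM with chaetocin and 55.4 ± 5.42 CPM with TGF-β alone, a log2 fold change of 2.03 ± 0.05 (SE; edgeR adjusted p = 2.99e-24). Arih1, the human form of which has been tied to ISG15 ligation, averaged 204 ± 5.68 CPM with chaetocin and 205 ± 2.59 CPM with TGF-β alone (edgeR adjusted p = 0.651). It was called higher, by 0.10 on the log2 scale, under total-count scaling. Ube2e1 and Ube2e2, E2 enzymes that the deposited annotation also assigns to ISG15 transfer, had log2 fold changes of -0.05 and -0.02 (edgeR adjusted p = 0.255 and 0.812).

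None of the 5 other proteases reported to react with ISG15 was called higher in the main edgeR fit. Of the 5, 2 fell, where 38.8% of all tested genes did, and 3 did not pass the test. Under total-count scaling 2 rose and 1 fell, and the median log2 fold change was 0.04 instead of -0.07. With DESeq2 size factors 1 was called higher, and a filter of 1 CPM in 4 libraries also gave 1. Leaving out 1 library gave 0 to 1 rises and 1 to 3 falls. Usp5 averaged 96.8 ± 2.62 CPM with chaetocin and 120 ± 1.80 CPM with TGF-β alone, and its log2 fold change was -0.31 (edgeR adjusted p = 2.82e-10). Usp13 fell by 0.43 on the log2 scale (edgeR adjusted p = 0.0132). The changes were 0.41 for Usp2, 0.06 for Usp14 and -0.07 for Usp16, with edgeR adjusted p of 0.0924, 0.0837 and 0.0619.

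The members were also set beside their own families. Among all tested genes 42.0% rose and 38.8% fell. Of 9 other E1 and E1-like genes 3 rose and 4 fell, with a median log2 fold change of -0.12. Sae1 rose by 0.26 and Atg7 by 0.25. Uba1, the main ubiquitin E1, fell by 0.22, and Uba3, the catalytic subunit of the NEDD8 E1, fell by 0.57. Of 32 tested other Ube2 genes 11 rose and 13 fell. Total-count scaling gave 14 rises and 10 falls. Ube2d3 rose by 1.04 and Ube2m, the NEDD8 E2, by 1.01, while Ube2h fell by 0.86. Ube2l3, the close relative of Ube2l6, averaged 182 ± 3.14 CPM with chaetocin and 177 ± 1.95 CPM with TGF-β alone and did not pass the test (edgeR adjusted p = 0.108).

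Of 4 other HERC genes 1 rose and 2 fell. Total-count scaling gave 2 rises and 2 falls. Herc3, a small HERC ligase like Herc6, averaged 79.0 ± 2.24 CPM with chaetocin and 50.7 ± 0.886 CPM with TGF-β alone, a log2 fold change of 0.64 (edgeR adjusted p = 3.15e-15). Of 49 tested other USP genes 20 rose and 22 fell, with a median log2 fold change of 0.02. Under total-count scaling, which moved the median of all genes to 0.14, 25 rose and 14 fell. Usp12 rose by 0.57 and Usp53 fell by 0.84. Usp17la and Usp26 had higher fitted changes than Usp18 but few reads: 150 over the chaetocin libraries and 3 over those with TGF-β alone for Usp17la, and 44 with chaetocin and 0 with TGF-β alone for Usp26. Of 13 tested other modifiers, ubiquitin and ubiquitin-like, 6 rose and 4 fell, and all lay between -0.28 and 0.28 on the log2 scale. Under total-count scaling 9 rose and 1 fell.

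**Figure D4:**
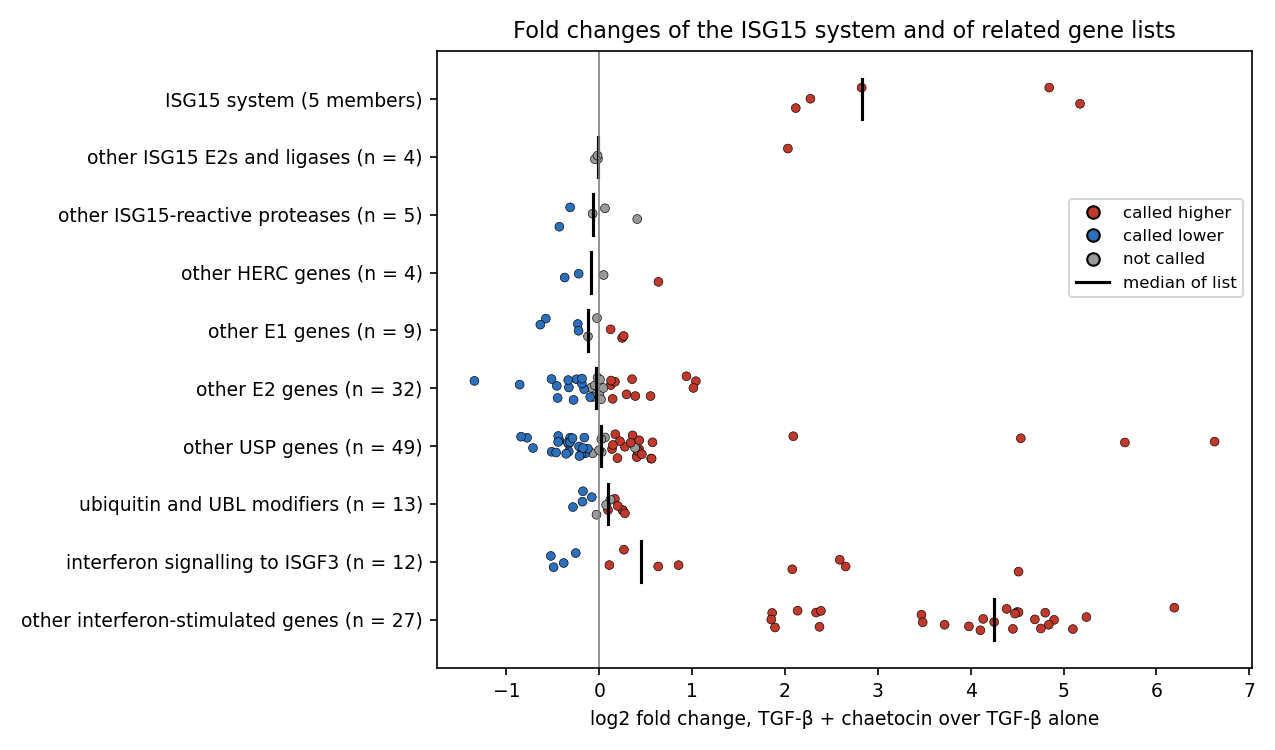
Log2 fold change, TGF-β with chaetocin over TGF-β alone, of every tested gene in each list, with calls coloured and the list median as a bar. The E1, E2, USP, HERC and modifier families centre near 0, while the 5 members and the 27 other interferon-stimulated genes lie above 1.85.

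Upstream of the system, 8 of 12 listed interferon signalling genes rose and 4 fell, where 42.0% of all tested genes rose and 38.8% fell. DESeq2 called 7 of them higher, and leaving out 1 library gave 7 to 8. Irf7, a transcription factor that amplifies interferon production, averaged 92.1 ± 5.02 CPM with chaetocin and 4.06 ± 1.12 CPM with TGF-β alone, a log2 fold change of 4.52 ± 0.08 (SE; edgeR adjusted p = 2.53e-26). The ISGF3 genes Stat2 and Irf9 rose by 2.59 and 2.08. Both chains of the receptor fell. Ifnar2, the chain that USP18 protein binds, averaged 26.4 ± 1.23 CPM with chaetocin and 37.9 ± 2.15 CPM with TGF-β alone, a log2 fold change of -0.52 (edgeR adjusted p = 8.28e-10). Ifnar1 fell by 0.25. Of the receptor's kinases Jak1 fell by 0.49 and Tyk2 rose by 0.27. The transcription factor gene Irf2 also fell, by 0.38.

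Interferon genes themselves had few reads. Of 21 listed, 10 had 0 counts in all 8 libraries, and 9 were at 0 in every library with TGF-β alone and above 0 with chaetocin. Most of those 9 rested on stray reads: over all chaetocin libraries Ifna2, Ifna5, Ifna7 and Ifng had 1 each. Ifnk and Ifnl3 had 2 each. The 15 Ifna, Ifnb1 and Ifnab genes together had 80 reads with chaetocin and 0 with TGF-β alone. The Ifna and Ifnab genes have similar sequences, so the assignment of reads to single genes among them is uncertain. Ifnab had 44 reads with chaetocin and 0 with TGF-β alone. After scaling for depth this was 17.7-fold over a floor of 3 counts for the group with TGF-β alone. Such ratios take the chaetocin reads as exact and leave out their sampling error. Ifna13 had 26 reads with chaetocin and 0 with TGF-β alone, 10.5-fold over that floor. Ifnb1 had 7 reads with chaetocin, 0 to 4 per library, and 0 with TGF-β alone, 2.82-fold over that floor. Ifna13 and Ifnb1 were below the filter and were not tested in the main edgeR fit. Ifnz, an interferon zeta (limitin) gene, had 143 reads with chaetocin and 34 with TGF-β alone and rose by 2.33 ± 0.28 on the log2 scale (SE; edgeR adjusted p = 2.54e-08).

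All 27 other interferon-stimulated genes rose, where 42.0% of all tested genes did, and their median log2 fold change was 4.25. The genes closest to Isg15 over the 8 libraries, by the root-mean-square difference of centred log2 CPM among 9757 genes, were Ifit3b at 0.133, Irf7 at 0.213, Ifit3 at 0.247 and Rtp4 at 0.271. Closest to Usp18 were Ifit1 at 0.203, Rsad2 at 0.210, Isg15 itself at 0.317 and Apol9a at 0.356.

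Downstream, 17 genes whose proteins have been reported to carry ISG15 were measured. Of these 13 rose and 4 fell, where 42.0% of all tested genes rose and 38.8% fell. The median log2 fold change was 0.43. Under total-count scaling 2 fell, and leaving out 1 library gave 12 to 13 rises. The list overlaps the interferon-stimulated genes. Ifih1, the RNA sensor MDA5, averaged 145 ± 6.63 CPM with chaetocin and 27 ± 3.19 CPM with TGF-β alone, a log2 fold change of 2.42 (edgeR adjusted p = 3.85e-25). Plcg1, a phospholipase, fell by 1.10. LFA-1, the integrin reported to bind secreted ISG15, is a pair of chains that moved apart: Itgal averaged 8.80 ± 1.98 CPM with chaetocin and 16.6 ± 0.977 CPM with TGF-β alone, a log2 fold change of -0.94 (edgeR adjusted p = 2.32e-09), whereas Itgb2 rose by 0.37 (edgeR adjusted p = 1.44e-05).

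Markers of other cell types are given beside these rises because fewer cells of a type and less RNA per cell cannot be told apart in bulk RNA. The 11 macrophage markers summed to 226 to 266 CPM with chaetocin and 369 to 406 CPM with TGF-β alone, with 4 rising and 7 falling. The 6 endothelial markers summed to 101 to 112 CPM with chaetocin and 51.7 to 58.5 CPM with TGF-β alone. Of the 6, 5 rose and 1 fell, with a median log2 fold change of 0.90. Among all tested genes 42.0% rose and 38.8% fell. Vwf, the von Willebrand factor gene, averaged 21.1 CPM with chaetocin and 0.857 CPM with TGF-β alone. That was the largest rise among the endothelial markers, and Emcn fell by 0.62 on the log2 scale. Of 4 plasmacytoid dendritic cell markers, which summed to 7.67 to 9.82 CPM with chaetocin and 7.99 to 10.2 CPM with TGF-β alone, Flt3 rose and Irf8 fell. The 10 lymphocyte markers summed to 1.79 to 3.67 CPM with chaetocin and 1.33 to 2.11 CPM with TGF-β alone. Of these 1 reached the test, Cd4, and 1, Cd8a, was at 0 in every library. Their part in the rise of the 5 members was not tested.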

How the data were processed

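RNA of RFB mouse kidney cells was prepared with a SMARTER mRNA library kit, per the labels' protocols. The deposited table gives, per the file headers, a raw count and an FPKM per gene and library, with the authors' log2 ratio, p-value and FDR; the builds named GRCm38 and mm10 come from the submitters' processing notes. For aligner, counter and strand setting: not given in the sources used here. The deposited p-value and FDR come from a test the table does not name and were not used. The 5 members and the gene lists were chosen with earlier results of these data known. Lists are given by counts and medians, with no set test. Named genes were the members, the 2 called genes with the smallest p in each direction per list, every gene of lists of at most 6 symbols, and the 4 genes most like Isg15 or Usp18. Stat2, Irf9, Ifnar1, Ifna13, Ifnb1, Uba1, Ube2l3, Pdgfra, Col3a1, Usp26, Usp17la, Tyk2 and Irf2 were chosen after their values were seen. A few genes that the rule selects are not reported here by name.

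Counts were tested with edgeR 4.0.16 in R 4.3.3 (filterByExpr, TMM, quasi-likelihood F test). Levels are TMM-scaled CPM. Log2 ratios to Isg15 used a pseudocount of 0.5 reads, and permutation tests were exact and two-sided. Alternatives used DESeq2 1.42.0 and limma 3.58.1. In simulated data on 13133 genes the edgeR fit called 100% of 50 genes raised by 1 on the log2 scale, 92% at 0.5, 76% at -0.5 and 96% at -1, and 15 of 12933 unchanged genes. Of those 13133 genes 12933 were left unchanged, whereas 80.7% of the tested genes were called in the real libraries. The fit with TMM scaling was not tested on data in which most genes change. Positions and overlaps come from the GENCODE M21 annotation and promoter windows from RefSeq. Replicate pairs differed by more than sampling noise, the chi-square per gene averaging 2.04 to 2.61, and each library counted as 1 sample. Such an excess can also arise between library preparations of 1 culture, so it does not show that the replicates were separate cultures. The common biological coefficient of variation in edgeR was 2.94%.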

Additional observations from a re-analysis of the deposited data

Results flagged for a closer look

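In 166 groups of 4 libraries, the highest or lowest library was compared with the other 3. In 10 groups it lay farther out than Dixon's 95% critical value allows, where chance alone gives about 1 in 20 groups, and 5 of the 10 were TGF-β replicate 2. In that library Usp18 stood at 6.96 CPM (others 2.11 to 2.42), Rtp4, an interferon-stimulated gene, at 5.31 CPM (2.22 to 2.53), Ifnz at 0.722 CPM, Fau at 153 CPM and Cd14 at 14.0 CPM. In TGF-β replicate 1, Col1a1 stood low at 217 CPM and C1qc low at 51.2 CPM. With chaetocin, Itgal stood high in replicate 3 at 11.7 CPM, Ifit1 low in replicate 1 at 92.5 CPM and Ube2l3 low in replicate 2 at 178 CPM. Without TGF-β replicate 2, the log2 fold change of Usp18 was 5.73 and all 5 members were called higher.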

How the results depend on the processing

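Over 18 alternatives, which were scaling, filters, DESeq2, limma on counts and FPKM, the replicate block and each library left out, the 5 members stayed called higher. Their log2 fold changes ranged from 4.69 to 5.12 for Isg15, 4.75 to 5.73 for Usp18, 1.70 to 2.23 for Uba7, 2.43 to 2.94 for Ube2l6 and 1.71 to 2.39 for Herc6. The chaetocin and TGF-β libraries share replicate numbers, but same-numbered libraries did not deviate together (correlations of -0.02 to 0.04), so the numbers were not taken to pair samples. With a replicate block, 11748 genes were called instead of 11791, and the ratios to Isg15 of Uba7, Ube2l6 and Herc6 lost their calls (adjusted p of 0.125, the smallest that 4 pairs allow). Their differences of -2.79, -2.05 and -2.62 are the same as without the block by arithmetic, since every pair is complete. Leaving out 1 library moved the differences within -2.96 to -2.63 for Uba7, -2.27 to -1.85 for Ube2l6, -2.81 to -2.49 for Herc6 and 0.24 to 0.60 for Usp18. The first 3 then missed the threshold, since 4 against 3 libraries cannot give a p below 0.0571. Under total-count scaling 7180 genes rose and 4514 fell, against 6129 and 5662 in the reported test, and in DESeq2 7390 rose and 5360 fell. With 4 libraries a group, 3 counts set the floor for interferon genes, and a difference near it could be missed at this depth. The number of the 21 listed interferon genes called higher depended on the filter. It was 2 in the reported test, 4 with no filter, 3 in DESeq2 and 1 with a filter of 1 CPM in 4 libraries.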

Other observations

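The protein-coding genes next to the members on either side were chosen by position after values were seen. Of 10 neighbours 6 were tested: 3 rose, 1 fell and 2 did not pass the test, and 0 reached a log2 fold change of 2. Among all tested genes 42.0% rose, 38.8% fell and 11.8% rose at least 4-fold. With 6 genes, these counts do not set the neighbours apart from the rest. Tuba8, a tubulin gene next to Usp18, rose by 1.33 (edgeR adjusted p = 3.94e-09). Agrn, next to Isg15, fell by 0.60 (edgeR adjusted p = 3.91e-19). Inka1, next to Uba7, had 48 reads with chaetocin and 13 with TGF-β alone and was below the filter. The core of the interferon-stimulated response element occurred in the promoter windows of 11 of 20 other interferon-stimulated genes with an entry (55%), against 3.99% of 27025 genes.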
